A study of Mus musculus with 14 samples.

Results

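Potassium channel subunits are the proteins that form, or attach to, the pores through which potassium ions leave or enter a cell. The genes of the set were chosen by name: 93 gene names in the table have the form Kcn, then lower-case letters, a number and at most 1 further letter, and 91 members remained once Kcnj10 and Kcnj13 were left out. The whole table holds 55450 genes. Of the 91 members, 70 had an FPKM (fragments normalised to transcript length and library size) reaching 0.5 in 3 or more of the 14 libraries and were tested, while 21 were not. All 70 passed by level alone, and no measured difference between genotypes entered the choice.

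The libraries came from hippocampal poly(A) RNA of female C57BL/6J mice at 10 weeks of age, with 1 library per mouse. The 3 WT mice were the controls of every comparison of a knockout group with WT. Δ3102 mice (n = 3) carry a CRISPR/Cas9 deletion that removes GPR30, a membrane estrogen receptor encoded by Gper1, from all cells. AG-KO mice (n = 4) are GPR30 fl/fl;GFAP-Cre and lose the receptor where the GFAP promoter drives Cre, in astrocytes, whereas NG-KO mice (n = 4) are GPR30 fl/fl;NSE-Cre and lose it where the neuron-specific enolase promoter does. Floxed or Cre-only control mice were not analysed here, so the deletion and the transgene cannot be told apart in the AG-KO and NG-KO groups. The labels do not say whether mice shared a litter, and p-values measure the spread between these mice.

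Potassium channels set the resting potential of neurons, end the action potential and buffer the potassium that firing neurons release. In most of them 4 subunits surround a central pore. Voltage-gated (Kv) subunits open on depolarization, calcium- or sodium-activated subunits respond to ions inside the cell, inward rectifiers (Kir) and tandem-pore (K2P) leak channels act near the resting potential, silent subunits work only when mixed with other Kv subunits, and auxiliary subunits steer trafficking and gating. Hippocampal pyramidal cells, interneurons, glia and vessel cells use different mixtures of these. RNA from the whole tissue mixes all of them, and fewer cells of a type cannot be told apart from less RNA per cell.

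The pore-forming members share the selectivity filter, a loop that holds the potassium ions in single file. Its codons (Thr or Ser, then Val, Ile, Leu or Thr, then Gly, then Tyr, Phe or Leu, then Gly) were searched in frame, on the coding strand, in the longest GENCODE vM21 coding sequence of every protein-coding gene. They occurred in 75 of 75 pore and silent members, in 0 of 16 auxiliary members and in 346 of 21817 protein-coding genes (1.59%). All 14 K2P members held them at least 2 times. The residues allowed are those of potassium channel filters, so these matches describe the members and are no independent test. The windows below (GRCm38, GENCODE vM21 transcripts) are shown for some of the subunits on which the comparisons turn and for 1 silent and 1 calcium-activated subunit. Capitals mark the 15 bases of the filter, with 6 bases on each side in lower case, and K2P windows show the filter nearer the 3′ end.
Kcnc1 (chr7:46427967-46427993, plus strand): atgacgACACTGGGCTATGGAgacatg
Kcnh2 (chr5:24325549-24325575, minus strand): ctcaccAGCGTGGGCTTTGGCaatgtc
Kcnf1 (chr12:17175055-17175081, minus strand): atgaccACAGTGGGCTATGGTgacatc
Kcnma1 (chr14:23528407-23528433, minus strand): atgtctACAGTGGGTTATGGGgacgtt
Kcnj8 (chr6:142566442-142566468, minus strand): caagtgACCATTGGGTTTGGAgggaga
Kcnk12 (chr17:87746447-87746473, minus strand): ttcagcACCATCGGCTTCGGGgacctg
The silent subunit Kcnf1 kept an intact filter.

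The 14 libraries held 44527024 to 62669865 counts, of which members took 0.366% to 0.456%. Gper1 was at 0.797, 1.15 and 3.05 FPKM in the WT group, 0.0686, 0.145 and 0.0124 in the Δ3102 group, 0.54, 1.38, 0.891 and 1.22 in the AG-KO group and 1.10, 1.41, 0.975 and 1.11 in the NG-KO group, and its log2 fold change was -4.36 in Δ3102 mice (adjusted p = 0.22 from edgeR), while the AG-KO and NG-KO mice lay within the WT range except AG-KO replicate 1, which was under it. Summed FPKM of marker lists ran from 756 to 918 for 6 neuronal genes and 224 to 328 for 6 astrocyte genes, so both were present in every library. It varied far more for oligodendrocytes (213 to 788), CA3 (21.7 to 52.4) and dentate gyrus (20.9 to 61.8). Genes of other organs also varied: hepatocyte genes summed to 1.118 to 422, skeletal muscle genes to 4.04 to 529.8 and testis genes to 0.14 to 165, with 2 of 5, 2 of 5 and 0 of 4 genes above the table's no-signal value in all libraries. By genotype, hepatocyte genes summed to 334 to 405 in WT mice, 5.29 to 422 in Δ3102 mice, 1.118 to 118 in AG-KO mice and 6.69 to 137 in NG-KO mice, so all WT libraries stood above all AG-KO and NG-KO libraries. All NG-KO mice were also under all WT mice for oligodendrocytes (213 to 322 against 343 to 788) and choroid plexus (5.49 to 45.9 against 78.9 to 122), and above them for neurons (865 to 914 against 795 to 862). Choroid plexus genes reached 1431 in Δ3102 replicate 1 and at most 241 elsewhere. No member is in a marker list, and the part of these RNAs in the values below was not tested.

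In WT hippocampus the most abundant members were auxiliary subunits. Mean FPKM was at least 1 for 60 of 91 members, at least 5 for 35, at least 10 for 15, at least 20 for 7 and at least 50 for 2. The 12 highest members held 59.5% of the summed FPKM of the set. By role, the 16 auxiliary members summed to 239 ± 26.2 FPKM (SD, n = 3), the 30 voltage-gated pore members to 172 ± 17.2, the 13 inward rectifiers to 89.8 ± 16.1, the 14 leak members to 61.9 ± 1.42, the 10 silent members to 53.7 ± 2.57 and the 8 calcium- or sodium-activated members to 24.7 ± 2.89. The last of these sums includes Kcnu1, the Slo3 pore, placed in that role by its gene family only. Over all members the sum was 640.2 ± 14.8 for WT, 681 ± 12.02 for Δ3102, 628 ± 29.3 for AG-KO and 663 ± 36.1 for NG-KO. The WT sums (626 to 656) overlapped those of the AG-KO mice (593 to 659.8) and NG-KO mice (611 to 693), whereas the Δ3102 sums (669 to 693) lay above all WT sums and overlapped those of the NG-KO mice.

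**Figure D1:**
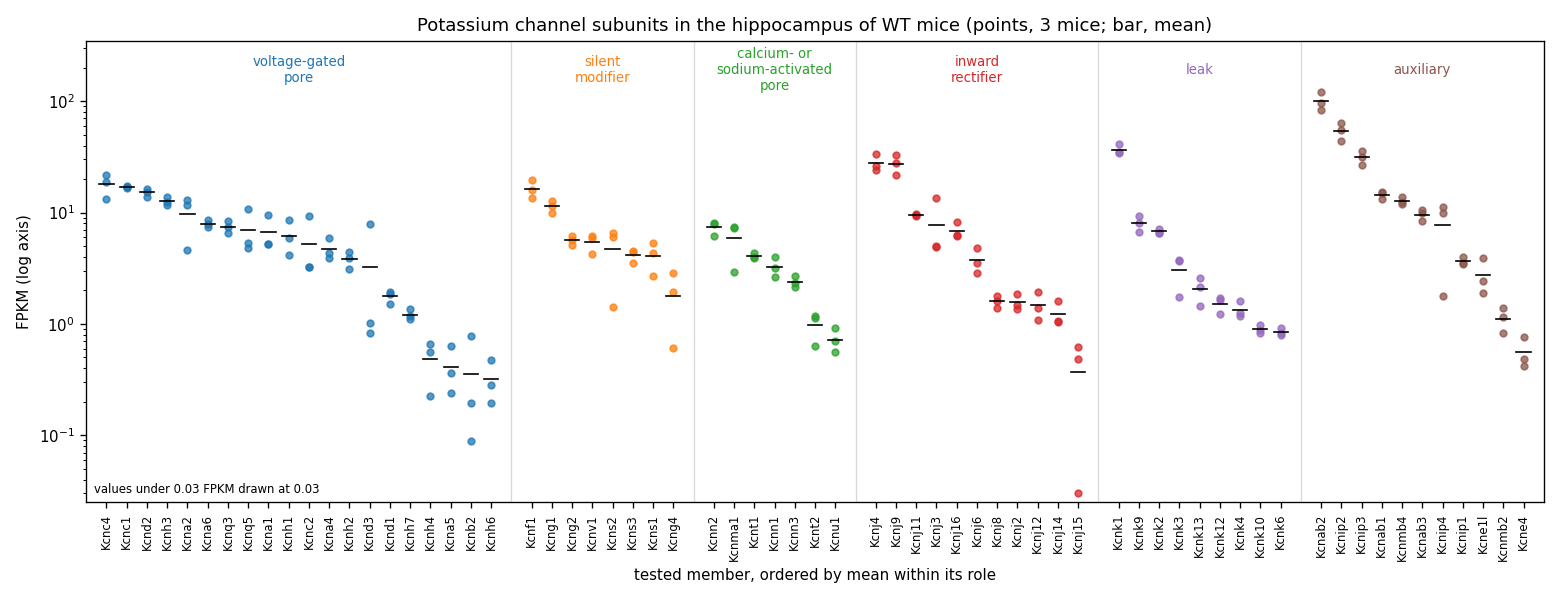
FPKM of 66 tested members in each of the 3 WT mice (points) with the mean (bar), on a log axis and grouped by role. Kcnab2 and Kcnip2 stood above all others, and the WT points of Kcnd3, Kcna2, Kcns2 and Kcnip4 lay far apart.

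Kcnab2, a cytoplasmic Kv beta subunit that binds Kv1 channels, led with 100.04 ± 18.2 FPKM (SD, n = 3). Kcnip2, a calcium-binding KChIP subunit of Kv4 channels, followed with 53.8 ± 9.78 FPKM. Kcnk1, the weakly conducting leak subunit TWIK-1, came next at 36.8 ± 3.57 FPKM. The WT ranges of these 3 members did not overlap in order: Kcnab2 ran from 83.7 to 119.7, Kcnip2 from 43.6 to 63.1 and Kcnk1 from 34.3 to 40.9. Below them every neighbour in the order down to Kcnj11 overlapped the next, so the order of these members is not resolved by 3 mice.

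Among the auxiliary members, Kcnip3 (also known as DREAM, a KChIP and transcriptional repressor) stood at 31.3 ± 4.31 FPKM, Kcnab1 at 14.5 ± 1.05 and Kcnmb4, the neuronal beta subunit of BK channels, at 12.7 ± 0.919. Kcnip1 and Kcnip4 were lower, at 3.65 ± 0.275 and 7.69 ± 5.15. The highest KCNE gene, Kcne1l, reached 2.76 ± 1.07.

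The inward rectifiers were led by Kcnj4 (Kir2.3) at 27.9 ± 4.87 FPKM and Kcnj9 (Kir3.3, a subunit of G protein-gated channels) at 27.6 ± 5.69, with overlapping ranges. The other Kir3 subunits Kcnj3 and Kcnj6 stood at 7.76 ± 4.92 and 3.73 ± 0.974. Kcnj11, the Kir6.2 pore of ATP-sensitive channels, was at 9.50 ± 0.177, and Kcnj8, the Kir6.1 pore known from mural cells of vessels, at 1.60 ± 0.198. The WT ranges of Kcnj11 (9.30 to 9.62) and Kcnj8 (1.40 to 1.79) did not overlap.

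Voltage-gated pore subunits formed a broad middle range. Kcnc4 and Kcnc1, Kv3 subunits that repolarize fast-spiking cells, were at 17.9 ± 4.28 and 17.0 ± 0.478 FPKM. Kcnd2 (Kv4.2), which carries the dendritic A-type current of pyramidal cells, was at 15.2 ± 1.296, against 1.77 ± 0.232 for Kcnd1. Kcnh3, an ELK channel, reached 12.7 ± 1.15 and Kcna2 (Kv1.2, an axonal channel) 9.72 ± 4.49.

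The silent subunits Kcnf1, Kcng1, Kcnv1 and Kcns2 stood at 16.3 ± 2.99, 11.4 ± 1.35, 5.40 ± 1.04 and 4.67 ± 2.83 FPKM. Among the calcium- and sodium-activated pores, Kcnn2 (an SK channel) was at 7.38 ± 1.09, Kcnma1 (the BK channel) at 5.89 ± 2.54 and Kcnt1 (a sodium-activated channel) at 4.10 ± 0.226. Kcnu1, the Slo3 pore known from sperm, was grouped with them by gene family only and stood at 0.724 ± 0.181. After Kcnk1 the leak subunits Kcnk9 and Kcnk2, known as TASK-3 and TREK-1, reached 8.01 ± 1.36 and 6.77 ± 0.361.

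Several members fell into widely separated values that the genotype labels did not follow. Of the 60 tested members with a mean of at least 1 FPKM over the 14 libraries, 35 (58.3%) had a highest value more than 2 times the lowest and 12 (20%) more than 4 times, beside 41.6% and 15% of 13869 tested genes at that level. The median ratio was 2.24 for members and 1.81 for all these genes. Against the member's own median, 40 of 60 members stayed within a factor of 2 in all 14 libraries, and the other 20 gave 33 values outside it. WT replicate 2 had none, and WT replicate 3, Δ3102 replicate 1 and NG-KO replicate 4 had 5 each.

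**Figure D2:**
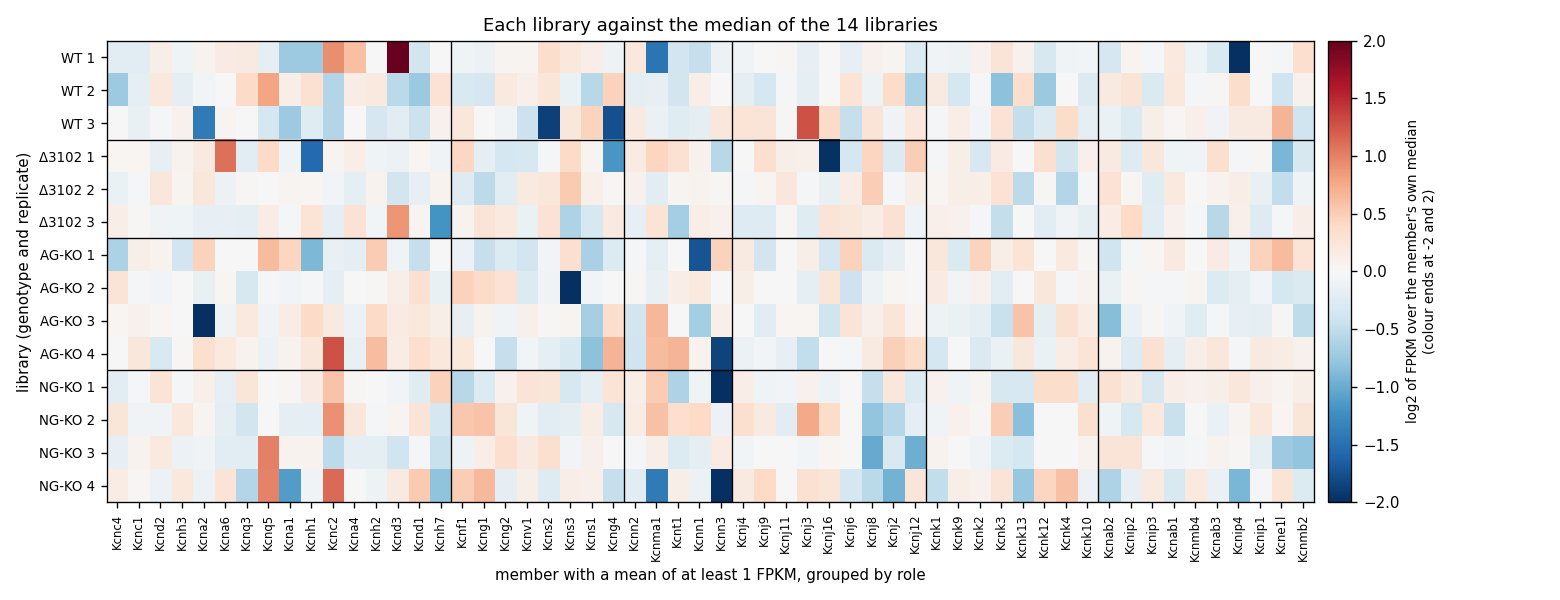
Colour map of 56 members with a mean of at least 1 FPKM (columns, grouped by role) in the 14 libraries, as log2 of FPKM over the member's own median. Most cells are pale, and the dark cells of Kcna2, Kcnn3 and Kcnma1 sit in libraries of more than 1 genotype.

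Kcnd3, the Kv4.3 pore of A-type channels, was at 7.92, 0.822 and 1.02 FPKM in the WT group, 1.10, 0.923 and 2.20 in the Δ3102 group, 1.14, 1.28, 1.33 and 1.32 in the AG-KO group and 1.14, 1.24, 0.905 and 1.34 in the NG-KO group. WT replicate 1 alone was high. The other 13 libraries lay at 0.822 to 2.20.

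Kcna2 was at 12.9, 11.7 and 4.59 FPKM in the WT group, 13.8, 14.2 and 10.9 in the Δ3102 group, 16.9, 10.97, 2.01 and 15.3 in the AG-KO group and 13.1, 12.7, 11.7 and 11.2 in the NG-KO group. WT replicate 3 and AG-KO replicate 3 were the low libraries. Kcnn3, an SK channel subunit, was at 2.15, 2.32 and 2.72 FPKM in the WT group, 1.58, 2.37 and 2.49 in the Δ3102 group, 3.22, 2.35, 2.50 and 0.65 in the AG-KO group and 0.404, 2.16, 2.62 and 0.527 in the NG-KO group. AG-KO replicate 4 and NG-KO replicates 1 and 4 lay at 0.404 to 0.65, all others at 1.58 or more.

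Kcns3, a silent subunit of Kv2 channels, was at 4.42, 3.49 and 4.48 FPKM in the WT group, 5.00, 5.49 and 2.51 in the Δ3102 group, 4.82, 0.521, 3.97 and 3.09 in the AG-KO group and 3.07, 3.38, 3.69 and 4.21 in the NG-KO group. A single AG-KO mouse, replicate 2, was low. Kcnma1 was at 2.95, 7.31 and 7.40 FPKM in the WT group, 10.9, 7.06 and 9.83 in the Δ3102 group, 7.09, 7.38, 12.9 and 12.6 in the AG-KO group and 11.5, 12.3, 8.88 and 3.05 in the NG-KO group. Its 2 lowest values were those of WT replicate 1 and NG-KO replicate 4, and the groups overlapped.

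**Figure D3:**
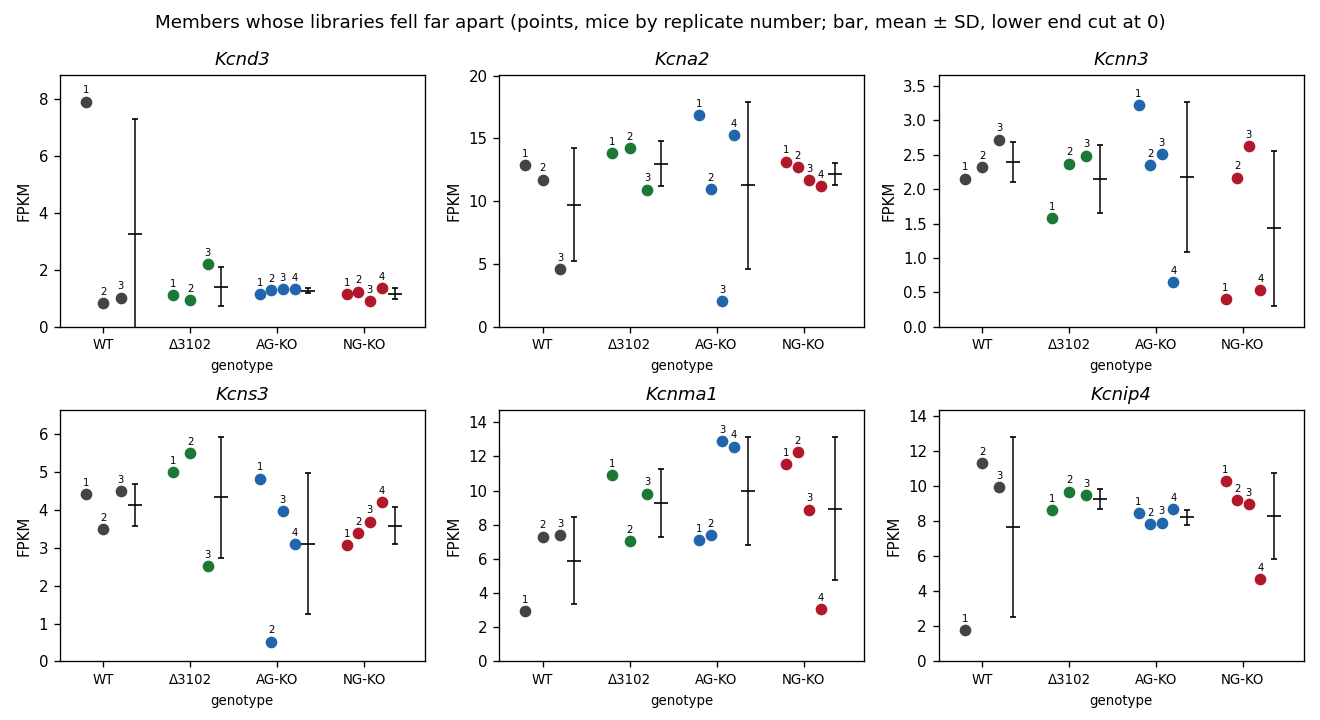
FPKM of 6 members in every mouse (points with replicate number) by genotype, with mean ± SD. Kcnd3 is high in WT replicate 1 alone, and Kcnn3 is low in AG-KO replicate 4 and NG-KO replicates 1 and 4.

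The ratio of CPM (counts scaled to library size) to FPKM varied by a factor of 1.01 to 1.07 over the libraries for all 70 members. For each of these members FPKM thus followed the counts and gives no second measure of the spread. Among further single departures were Kcnip4 at 1.80 FPKM in WT replicate 1 beside 4.72 to 11.3 elsewhere, and Kcns2 at 1.41 in WT replicate 3 beside 4.27 to 6.55 elsewhere. Kcna6 was at 16.2 FPKM in Δ3102 replicate 1 beside 6.55 to 9.11 elsewhere. Other departures, in WT and knockout libraries, are not listed here. Which transcripts the low or high libraries held was not tested, because the table gives 1 value per gene.

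The first comparison asked whether loss of GPR30 in all cells altered the members. The lowest unadjusted p-values included those of Kcnc1, Kcna5 and Kcnk12, all higher on average in Δ3102 mice by log2 fold changes of 0.19 to 0.91. No member passed an adjusted p of 0.05 between Δ3102 and WT mice in edgeR, and the smallest adjusted p was 0.999706. Among all 18059 tested genes 0.0111% passed. DESeq2 and limma on log2(FPKM + 0.1) and log2(FPKM + 1) also called 0 of 70 members, against 0.161%, 0.0111% and 0.0111% of all genes. At an unadjusted p under 0.05 there were 4 members, 5.71% against 4.45% of all genes. All 4 were higher (background 2.18%) and 0 were lower (background 2.27%). Without Δ3102 replicate 1, the library with the highest choroid plexus sum, 2 members had such a p. With a replicate block and all libraries it was also 2, and the cause of either drop was not tested. The median log2 fold change was 0.020 over members and -0.0037 over all tested genes.

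Between AG-KO and WT mice, the comparison for loss of the receptor in astrocytes, Kcnc1 and Kcnd1 were higher on average by log2 fold changes of 0.32 and 0.67, and Kcnj14 was lower in all 4 mice, at -0.88. EdgeR again called 0 of 70 members (0.0221% of all genes), with a smallest adjusted p of 0.13 for Kcnc1. DESeq2 called 2, among them Kcnc1, where it called 2.36% of all genes, and limma called 0 with either pseudocount (0.0277% and 0.0775% of all genes). At an unadjusted p under 0.05 there were 11 members, 15.7% against 14.4% of all genes, with 6 higher (background 6.65%) and 5 lower (background 7.74%), and without AG-KO replicate 4 there were 6. The median log2 fold change was 0.067 over members and -0.014 over all genes.

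Between NG-KO and WT mice, for loss in neurons, Kcnk12 and Kcnd1 were higher in all 4 mice by log2 fold changes of 0.66 and 0.67, and Kcnj8 was lower in all 4, at -0.75. EdgeR called 0 of 70 members (0.072% of all genes), with a smallest adjusted p of 0.284. DESeq2 called 1 member and 0.916% of all genes, and limma called 0 (0.0831% and 0.0886%). Unadjusted, 11 members had p under 0.05, 15.7% against 9.16% of all genes, with 5 higher (background 4.33%) and 6 lower (background 4.83%). Only 6 members (8.57%) had such a p when the 2 groups were fitted alone, and 6 with a replicate block. The median log2 fold change was 0.094 over members and -0.016 over all genes.

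AG-KO and NG-KO mice, compared directly, share no control. Kcnk13, Kcnj8 and Kcnh2 were higher in all 4 AG-KO than in all 4 NG-KO mice, by log2 fold changes of 0.86, 0.68 and 0.49. EdgeR called 0 of 70 members (0.111% of all genes), with a smallest adjusted p of 0.145 for Kcnk13. DESeq2 called Kcnk13 alone among members and 2.43% of all genes, and limma called 0 (0.133% and 0.116%). Only 4 members had an unadjusted p under 0.05, 5.71% against 14.1% of all genes, with 3 higher in AG-KO mice (background 7.3%) and 1 lower (background 6.84%), and without NG-KO replicate 1 there were 9. The median log2 fold change was 0.03 over members and -0.0093 over all genes.

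FPKM ranges of the groups did not overlap for 5 members between Δ3102 and WT mice (11.5% of all genes), 7 between AG-KO and WT (13.3%), 6 between NG-KO and WT (10.9%) and 4 between AG-KO and NG-KO (6.77%). As shares of the 70 members these were 7.14%, 10%, 8.57% and 5.71%. The 3 comparisons against WT share the same 3 control mice. Counted over all 11 knockout libraries together, a count chosen after the values were seen, 3 members (4.29%, against 0.609% of all genes) were above every WT mouse, among them Kcnc1 and Kcnk12, and 0 were below every WT mouse (0.764% of all genes). With 3 against 3 mice the smallest two-sided exact permutation p is 0.1, with 4 against 3 it is 0.0571 and with 4 against 4 it is 0.0286.

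**Figure D4:**
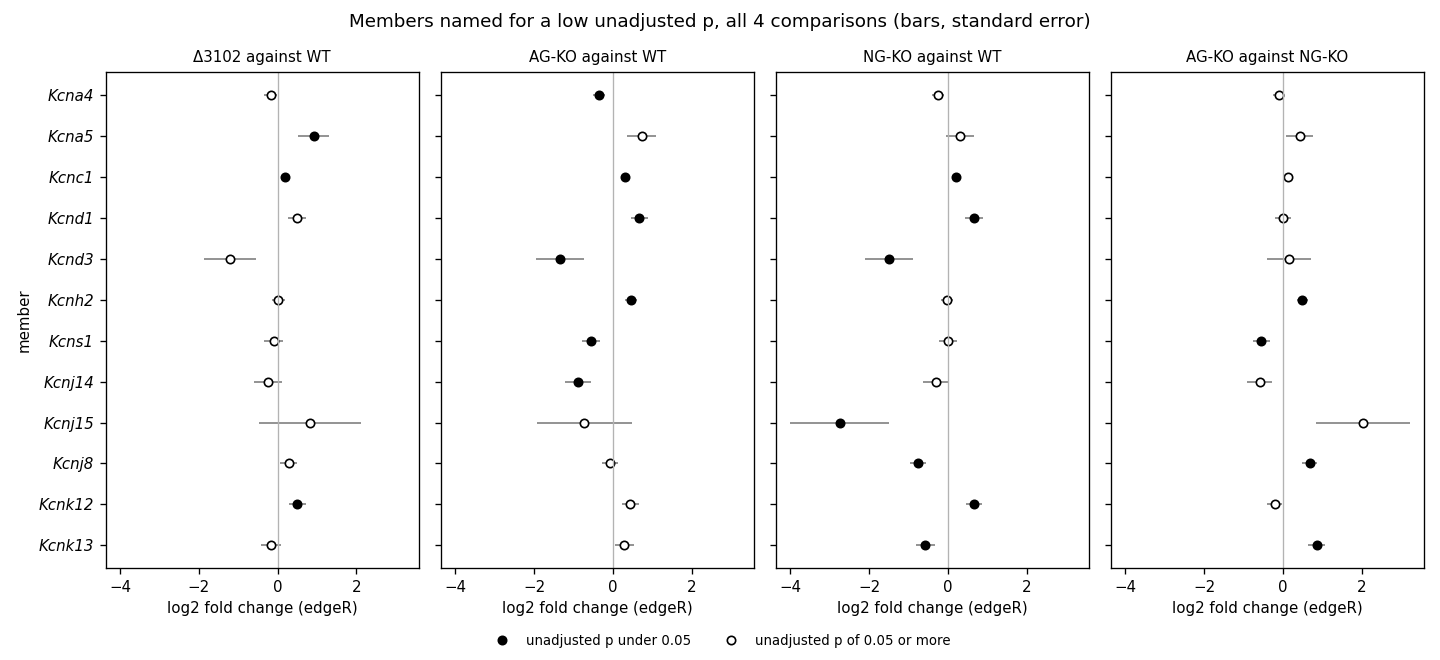
Log2 fold change with standard error (edgeR, all 14 libraries in 1 fit) of 12 members named for a low unadjusted p, in each of the 4 comparisons. Filled points have an unadjusted p under 0.05. Kcnc1 is filled in all 3 comparisons against the shared WT mice, and the widest bars belong to Kcnd3 and Kcnj15.

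Kcnc1 (Kv3.1, chr7:46396497-46438704, plus strand), which lets fast-spiking interneurons fire at high rates, was at 16.5, 17.1 and 17.5 FPKM in the WT group, 19.8, 18.8 and 19.6 in the Δ3102 group, 20.9, 18.8, 20.6 and 22.7 in the AG-KO group and 19.1, 18.4, 20.4 and 19.6 in the NG-KO group. The sum of 6 interneuron markers was 416 to 451 in WT mice, 486 to 504 in Δ3102 mice, 382 to 526 in AG-KO mice and 399 to 514 in NG-KO mice, and its part in the Kcnc1 values was not tested. All 11 knockout mice stood above all 3 WT mice for Kcnc1, and the spread within WT was small, 17.0 ± 0.478 (SD, n = 3). The log2 fold change from edgeR was 0.19 (standard error 0.078, unadjusted p = 0.0294, adjusted p = 1) in Δ3102 mice. In AG-KO mice it was 0.32 (standard error 0.073, unadjusted p = 0.000882, adjusted p = 0.13). In NG-KO mice it was 0.20 (standard error 0.073, unadjusted p = 0.0197, adjusted p = 0.443). Without AG-KO replicate 2 the AG-KO value was 0.37 and its adjusted p passed the threshold at 0.0433, and over all settings tried this adjusted p ran from 0.0097 to 0.356. The exact permutation p was 0.1, 0.0571 and 0.0571, in each case the smallest possible.

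Kcnd1 (Kv4.1), a minor A-type pore subunit here, was at 1.94, 1.51 and 1.87 FPKM in the WT group, 2.56, 2.23 and 2.61 in the Δ3102 group, 1.82, 3.11, 2.91 and 3.18 in the AG-KO group and 2.11, 3.00, 2.45 and 3.60 in the NG-KO group. The WT mice overlapped AG-KO replicate 1 only. The log2 fold change was 0.67 (standard error 0.22, unadjusted p = 0.00915, adjusted p = 0.209) in AG-KO mice, 0.67 (standard error 0.22, unadjusted p = 0.00982, adjusted p = 0.384) in NG-KO mice and 0.48 (standard error 0.23, unadjusted p = 0.0591, adjusted p = 1) in Δ3102 mice.

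**Figure D5:**
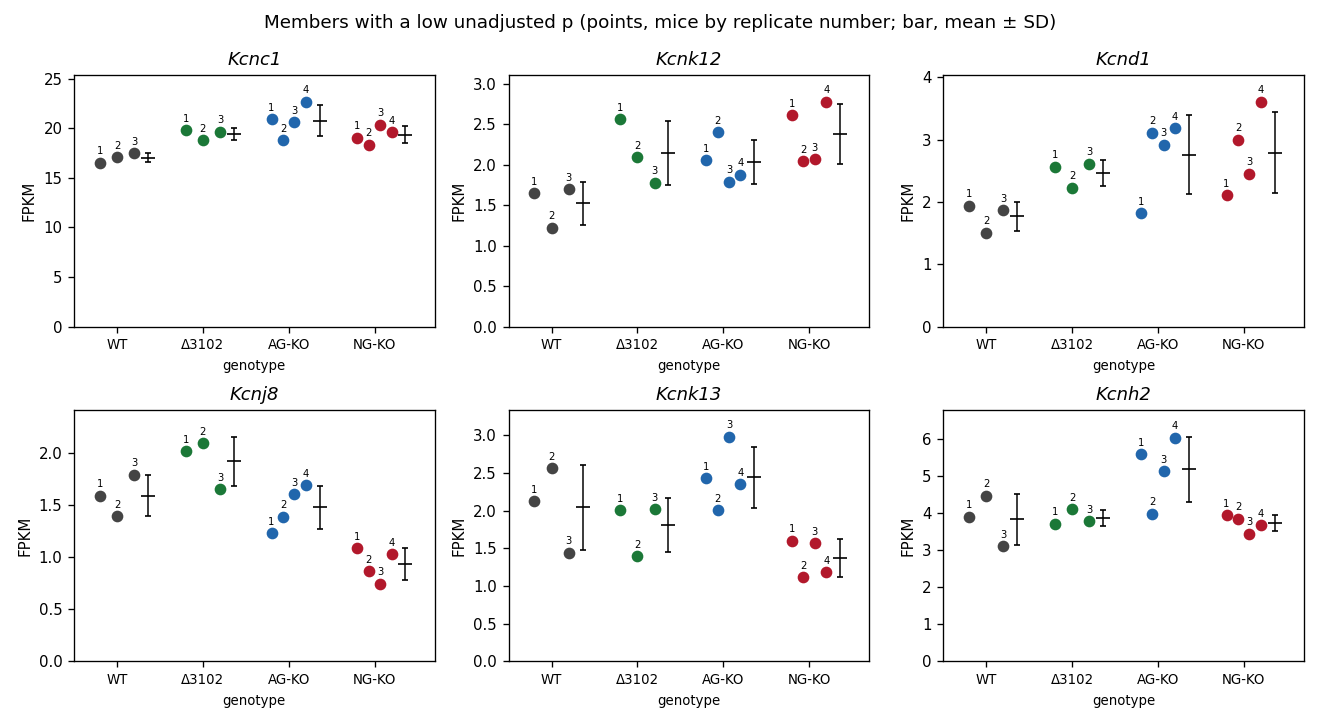
FPKM of 6 members with low unadjusted p in every mouse (points with replicate number), with mean ± SD by genotype and axes from 0. All knockout points of Kcnc1 and Kcnk12 lie above the 3 WT points, and those of Kcnj8 and Kcnk13 in NG-KO mice lie under those in AG-KO mice.

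Kcnd3 had log2 fold changes of -1.34 (standard error 0.61, unadjusted p = 0.0467, adjusted p = 0.34) in AG-KO mice and -1.49 (standard error 0.61, unadjusted p = 0.0295, adjusted p = 0.488) in NG-KO mice that rest on WT replicate 1. Without that mouse they turned to 0.50 and 0.35. The exact permutation p on all mice was 0.857 and 0.8.

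Kcnh2 (ERG1), the pore of the rapid delayed rectifier current, was at 3.90, 4.47 and 3.10 FPKM in the WT group, 3.71, 4.10 and 3.77 in the Δ3102 group, 5.58, 3.98, 5.12 and 6.02 in the AG-KO group and 3.93, 3.84, 3.44 and 3.67 in the NG-KO group. The 4 AG-KO mice were above the 4 NG-KO mice, by a log2 fold change of 0.49 (standard error 0.14, unadjusted p = 0.00441, adjusted p = 0.175) with an exact permutation p of 0.0286, the smallest possible. Against WT the AG-KO value was 0.47 (standard error 0.16, unadjusted p = 0.0105, adjusted p = 0.216), and the ranges overlapped. Without AG-KO replicate 2 the difference from NG-KO mice was 0.61, at an adjusted p of 0.0406, and over all settings its adjusted p ran to 0.393.

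Kcna5 (Kv1.5) was low, at 0.364, 0.241 and 0.632 FPKM in the WT group, 0.534, 0.657 and 1.124 in the Δ3102 group, 0.637, 0.605, 0.651 and 0.773 in the AG-KO group and 0.43, 0.673, 0.46 and 0.458 in the NG-KO group. The log2 fold change was 0.91 (standard error 0.39, unadjusted p = 0.037, adjusted p = 1) in Δ3102 mice, whose range overlapped that of WT. Kcna4 (Kv1.4) was at 5.96, 4.37 and 3.91 FPKM in the WT group, 4.33, 3.45 and 4.78 in the Δ3102 group, 3.45, 3.94, 3.62 and 3.55 in the AG-KO group and 3.995, 4.58, 3.43 and 3.92 in the NG-KO group, with a log2 fold change of -0.35 (standard error 0.16, unadjusted p = 0.0424, adjusted p = 0.327) in AG-KO mice and overlapping ranges.

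The silent subunit Kcns1 was at 4.32, 2.67 and 5.32 FPKM in the WT group, 4.07, 4.20 and 3.14 in the Δ3102 group, 2.52, 3.78, 2.47 and 2.21 in the AG-KO group and 3.48, 4.37, 4.20 and 4.21 in the NG-KO group. Its log2 fold change was -0.55 (standard error 0.23, unadjusted p = 0.0314, adjusted p = 0.3) in AG-KO against WT mice and -0.55 (standard error 0.21, unadjusted p = 0.0231, adjusted p = 0.277) in AG-KO against NG-KO mice, and groups overlapped in both. Kcnt1 was at 3.94, 3.99 and 4.36 FPKM in the WT group, 6.35, 5.38 and 3.23 in the Δ3102 group, 5.13, 5.67, 5.19 and 8.23 in the AG-KO group and 3.38, 6.49, 4.29 and 5.59 in the NG-KO group. The AG-KO mice were above the WT mice, with a log2 fold change of 0.60 (standard error 0.26, unadjusted p = 0.0381, adjusted p = 0.318).

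Among inward rectifiers, Kcnj8 was at 1.59, 1.40 and 1.79 FPKM in the WT group, 2.02, 2.10 and 1.66 in the Δ3102 group, 1.23, 1.39, 1.61 and 1.69 in the AG-KO group and 1.09, 0.87, 0.747 and 1.03 in the NG-KO group. All NG-KO mice stood under all WT, Δ3102 and AG-KO mice. The log2 fold change was -0.75 (standard error 0.21, unadjusted p = 0.00328, adjusted p = 0.306) relative to WT. Between AG-KO and NG-KO mice it was 0.68 (standard error 0.20, unadjusted p = 0.00412, adjusted p = 0.171). The exact permutation p was 0.0571 against WT and 0.0286 between the knockouts, the smallest possible in each case. The summed FPKM of 4 mural cell markers was 26.8 to 33.8 in WT mice, 21.4 to 36.1 in AG-KO mice and 24.2 to 26.5 in NG-KO mice, and that of 4 endothelial markers 26.8 to 34.0, 27.3 to 40.1 and 22.1 to 25.8. Both sums were thus lower in all NG-KO mice than in all WT mice, the endothelial sum was also lower in all NG-KO than in all AG-KO mice, and their part in the Kcnj8 values was not tested.

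Kcnj14 (Kir2.4) was at 1.04, 1.06 and 1.61 FPKM in the WT group, 1.05, 0.981 and 1.10 in the Δ3102 group, 0.377, 0.778, 0.93 and 0.515 in the AG-KO group and 0.642, 1.24, 0.938 and 1.19 in the NG-KO group. All 4 AG-KO mice were under the WT range, with a log2 fold change of -0.88 (standard error 0.33, unadjusted p = 0.0198, adjusted p = 0.262). Kcnj15 (Kir4.2) was at 0.0001, 0.617 and 0.485 FPKM in the WT group, 0.674, 0.265 and 1.02 in the Δ3102 group, 0.194, 0.37, 0.164 and 0.143 in the AG-KO group and 0.0001, 0.029, 0.113 and 0.0711 in the NG-KO group, where 0.0001 is the value the table gives to genes without signal. WT replicate 1 and NG-KO replicate 1 had no signal, and the NG-KO log2 fold change of -2.75 (standard error 1.26, unadjusted p = 0.0487, adjusted p = 0.54) ran from -3.41 to -0.35 over the settings tried.

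The leak subunit Kcnk12 (THIK-2) was at 1.65, 1.22 and 1.69 FPKM in the WT group, 2.56, 2.09 and 1.78 in the Δ3102 group, 2.06, 2.40, 1.79 and 1.88 in the AG-KO group and 2.61, 2.05, 2.07 and 2.78 in the NG-KO group. Every knockout mouse was above the WT maximum of 1.69. The log2 fold change was 0.50 (standard error 0.22, unadjusted p = 0.0407, adjusted p = 1) for Δ3102, 0.45 (standard error 0.21, unadjusted p = 0.0506, adjusted p = 0.349) for AG-KO and 0.66 (standard error 0.21, unadjusted p = 0.0076, adjusted p = 0.355) for NG-KO mice.

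Kcnk13 (THIK-1), known as a microglial channel, was at 2.12, 2.57 and 1.44 FPKM in the WT group, 2.01, 1.39 and 2.02 in the Δ3102 group, 2.43, 2.00, 2.98 and 2.35 in the AG-KO group and 1.60, 1.119, 1.56 and 1.18 in the NG-KO group. The 4 AG-KO mice were above the 4 NG-KO mice. That difference had a log2 fold change of 0.86 (standard error 0.23, unadjusted p = 0.00225, adjusted p = 0.145), an exact permutation p of 0.0286 and a DESeq2 adjusted p of 0.028. Against WT the NG-KO value was -0.57 (standard error 0.24, unadjusted p = 0.0346, adjusted p = 0.503), and ranges overlapped. Summed FPKM of 4 microglial markers overlapped between the groups, at 30.3 to 44.1 in AG-KO and 28.0 to 35.97 in NG-KO mice. The sums of 6 astrocyte markers (289 to 328 against 224 to 287) and 6 oligodendrocyte markers (343 to 638 against 213 to 322) were higher in all AG-KO than in all NG-KO mice, as Kcnk13 and Kcnh2 were. Their part in these values was not tested.

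The 3 most abundant members overlapped between every knockout group and WT. Kcnab2 was at 83.7, 119.7 and 96.6 FPKM in the WT group, 120.2, 129 and 117 in the Δ3102 group, 80.3, 96.7, 58.6 and 111 in the AG-KO group and 130.2, 99.96, 127 and 69.1 in the NG-KO group, with log2 fold changes of 0.29, -0.18 and 0.11 in Δ3102, AG-KO and NG-KO mice. Kcnip2 was at 54.9, 63.1 and 43.6 FPKM in the WT group, 44.5, 54.4 and 69.9 in the Δ3102 group, 52.2, 53.6, 48.5 and 44.5 in the AG-KO group and 60.0, 42.3, 63.4 and 47.0 in the NG-KO group and overlapped likewise. Kcnk1 was at 34.3, 40.9 and 35.2 FPKM in the WT group, 34.9, 36.8 and 38.5 in the Δ3102 group, 42.4, 40.3, 33.7 and 28.2 in the AG-KO group and 38.1, 34.4, 37.7 and 25.5 in the NG-KO group, also with overlap throughout. For Kcnab1 the NG-KO value was -0.28 (standard error 0.13, unadjusted p = 0.0495, adjusted p = 0.543), and its ranges of 9.59 to 14.3 in NG-KO and 13.3 to 15.2 in WT mice overlapped.

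Gene models of other genes overlap 37 of the 70 tested members, 19 of them a tested model, and 3 of these (Kcnk2, Kcnk4 and Kcnq5) lie on the same strand. Kcnh3 overlaps Mcrs1 on the opposite strand, at 13.6 to 20.2 FPKM. Kcnk2, at 5.41 to 9.24 FPKM, overlaps Pdcd5-ps at 25.6 to 41.4 FPKM on the same strand, where strand does not separate reads. The library kit marks the strand with dUTP, but the strand setting of the counting is not given in the sources used here, so values of overlapping genes may share reads. Kcnk4, lower in all Δ3102 than in all WT mice (0.8293 to 1.181 against 1.184 to 1.60 FPKM, so that the ranges barely part), overlaps Catsperz and was picked once its values were known.

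Genes that work with these channels were counted from lists drawn up by function, with earlier results of these data known. The shares below therefore describe these lists and are no independent test. Of 51 listed partners, 49 were tested and 0 passed an adjusted p of 0.05 in any comparison. At an unadjusted p under 0.05, 7 were higher (14.3% against 2.18% of all genes) and 0 lower (2.27%) for Δ3102. For AG-KO 10 were higher (20.4% against 6.65%) and 3 lower (6.12% against 7.74%), and for NG-KO 4 were higher (8.16% against 4.33%) and 4 lower (8.16% against 4.83%). In AG-KO relative to NG-KO mice 15 were higher (30.6% against 7.3%) and 3 lower (6.12% against 6.84%). In the list of HCN channels and their TRIP8b subunit, which carry the opposing inward current of dendrites, 2 of 5 were higher in AG-KO mice at that p (background 6.65%) and 0 lower (background 7.74%). Of these Hcn2 was at 28.95, 30.9 and 30.0 FPKM in the WT group, 34.6, 34.1 and 29.7 in the Δ3102 group, 37.7, 34.9, 39.6 and 42.6 in the AG-KO group and 31.5, 32.5, 31.7 and 31.3 in the NG-KO group, with a log2 fold change of 0.40 (standard error 0.087, unadjusted p = 0.000505, adjusted p = 0.118) against WT and 0.31 (standard error 0.08, unadjusted p = 0.0022, adjusted p = 0.145) against NG-KO mice. The HCN list was not particular to AG-KO mice. Against WT, 1 of its 5 genes was higher at that p in Δ3102 mice (background 2.18%) and 0 lower (background 2.27%). In NG-KO mice 1 was higher (background 4.33%) and 0 lower (background 4.83%). Hcn2 was the higher gene in neither. Of 8 sodium channel genes, 3 were higher in AG-KO mice at that p (background 6.65%) and 0 lower (background 7.74%).

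Calm2, which encodes calmodulin, the calcium sensor of SK and Kv7 channels, was at 1022, 1033 and 926 FPKM in the WT group, 954, 918 and 888 in the Δ3102 group, 806, 855, 699 and 692 in the AG-KO group and 906, 866, 946 and 888 in the NG-KO group. All AG-KO mice were under all WT mice, with a log2 fold change of -0.36 (standard error 0.071, unadjusted p = 0.000246, adjusted p = 0.113). Abcc9, the sulfonylurea receptor that pairs with Kir6.1 (Kcnj8), had a log2 fold change of 0.36 (standard error 0.13, unadjusted p = 0.0171, adjusted p = 0.256) in AG-KO against NG-KO mice. Its AG-KO range (0.815 to 1.06 FPKM) overlapped its NG-KO range (0.707 to 0.851 FPKM). Against WT its NG-KO value was -0.21 (edgeR, unadjusted p = 0.163, adjusted p = 0.71). Abcc8, another sulfonylurea receptor, had 0.39 (edgeR, unadjusted p = 0.0439, adjusted p = 0.335) in AG-KO against NG-KO mice. The Kv4 partner Dpp6 ran only from 33.2 to 38.0 FPKM over the 14 libraries.

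The 21 members that were not tested had at most 0.495 FPKM in any WT mouse. Of these, 20 had counts in at least 1 library and Kcnk15 had 0 counts in all 14, where 3 counts, the limit that a count of 0 allows, correspond to a CPM of 0.0479 to 0.0674, counting error only. Kcne2, a beta subunit known from the choroid plexus, was at 0.0001, 0.284 and 0.234 FPKM in the WT group, 5.22, 0.14 and 0.0001 in the Δ3102 group, 0.265, 0.0001, 1.121 and 0.311 in the AG-KO group and 0.0001, 0.0001, 0.0001 and 0.0588 in the NG-KO group. Δ3102 replicate 1 was highest and AG-KO replicate 3 next, and the summed choroid plexus markers were 1431 and 241 in these libraries, their 2 highest values. Whether this tissue was the source of the Kcne2 reads was not tested.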

How the data were processed

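Hippocampal poly(A) RNA of 14 mice was sequenced from a kit that marks strand with dUTP. The authors deposited counts and FPKM per gene. The submitters' processing notes name cutadapt 1.9, HISAT2 2.0.4, StringTie 1.3.4d, UMI-tools, DESeq2, edgeR and GRCm38. The counting program and its strand setting are not given in the sources used here. The deposited FPKM lists genes without signal at 0.0001.

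The 18059 genes reaching an FPKM of 0.5 in 3 or more libraries were tested on counts with edgeR 4.0.16 (TMM, quasi-likelihood, R 4.3.3), 1 fit of all 14 libraries by group, with Benjamini-Hochberg adjustment over all tested genes. Single FPKM values were compared by two-sided exact permutation tests (SciPy 1.17.1). Scripts were tested on simulated data. Alternatives were no filter, an FPKM of at least 1, median-ratio scaling, DESeq2 1.42.0, limma 3.58.1 on log2(FPKM + 0.1) and log2(FPKM + 1), only the 2 groups compared, a replicate block and leaving out each library.

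Named members had an unadjusted p under 0.05 (up to 5 per direction and comparison), were among the 12 highest in WT mice, led their subfamily or were among the 5 most uneven at a mean of at least 1 FPKM. Members named outside this rule (Kcnk2, Kcnk4, Kcnk9, Kcnk15, Kcne2, Kcnip1, Kcnip4, Kcnj3, Kcnj6, Kcnj11, Kcnj12, Kcnq5, Kcna6 and Kcnc2) were chosen after their values were seen, as were the partner genes given with values. Members and lists were chosen with earlier results of these data known. No library pair held identical values (0 of 91). Some members and partner genes, and some sequences, are included in the counts but not reported here by name or drawn.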

Additional observations from a re-analysis of the deposited data

Results flagged for a closer look

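In groups of 4 mice, 7 values of tested members lay apart from the other 3 beyond the limit of Dixon's test, out of 140 groups tested (70 members in AG-KO and NG-KO mice). This is 5%, and chance marks about 1 in 20. In AG-KO mice, replicate 1 was high for Kcnq5 (9.63 FPKM beside 5.69 to 6.05) and low for Kcnh3 (10.1 beside 13.2 to 13.5). AG-KO replicate 4 was high for Kcnc2 (11.8 beside 4.23 to 5.501) and Kcnj12 (2.18 beside 1.67 to 1.75). In NG-KO mice, replicate 4 was high for Kcna6 (9.11 beside 6.55 to 6.74) and low for Kcnj6 (3.10 beside 3.94 to 3.997), and replicate 2 was high for Kcna5 (0.673 beside 0.430 to 0.46).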

How the results depend on the processing

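Of 614 alternative fits of the 28 gene and comparison pairs with a low unadjusted p, 612 kept their direction. The exceptions were Kcnd3 without WT replicate 1: with 1 library left out its log2 fold change ran from -1.79 to 0.50 in AG-KO and from -1.95 to 0.35 in NG-KO mice. The 96 alternative values of 24 WT levels moved by less than 1 SD. Members called at an adjusted p under 0.05 went from 0 to 2 in AG-KO, 1 in NG-KO and 1 in AG-KO against NG-KO mice with DESeq2. With 1 library left out they ranged from 0 to 1 in AG-KO against WT and from 0 to 1 in AG-KO against NG-KO mice, the 1 being Kcnc1 and Kcnh2 without AG-KO replicate 2. At an unadjusted p under 0.05, leaving out 1 library gave 2 to 5 members in Δ3102 mice (4 with all libraries), 6 to 13 in AG-KO mice (11) and 3 to 9 in AG-KO against NG-KO mice (4). Fitting only the 2 groups gave 6 in NG-KO mice (11), and no filter gave 7 in AG-KO against NG-KO mice (4). The causes were not tested.

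Same-numbered mice did not deviate together: 19 correlations of deviations ran from -0.287 to 0.313 (median -0.028), against -0.454 to 0.443 for different numbers. No pairing by replicate number was seen. These correlations rest on 3 or 4 mice per group, so they cannot decide whether same-numbered mice shared a litter or a batch. A replicate block lowered the members at an unadjusted p under 0.05 to 2 (Δ3102) and 6 (NG-KO). Groups of 3 or 4 mice limit all comparisons, and members under 1 FPKM rest on few counts.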
